A study of Mus musculus with 2 samples.

Results

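The core pluripotency transcription factor genes, Pou5f1, Sox2, Nanog and Sall4, were chosen by name, and all 4 were found among the 21911 protein-coding genes of the GENCODE M21 annotation on chromosomes 1 to 19, X and Y. H3K36me3, histone H3 trimethylated at a lysine of its tail, was measured by ChIP-seq, the sequencing of DNA pulled down with an antibody to the mark, in E14TG2a.4 cells, a male embryonic stem (ES) cell line of the 129/Ola mouse strain that the labels give as embryonic, with an age of 3.5 days. The series holds 1 group of 2 biological replicates from separate biosamples of 1 line and 1 donor, with no treatment and no other genotype, so no conditions were compared. For each replicate the authors deposited its own set of peaks on mm10, with 107779 peaks over 139 Mb in replicate 1 and 98185 peaks over 127.0 Mb in replicate 2. Read depth is unknown, and a base outside every peak is a base that was not called, not a base shown to lack the mark. In cell populations, a mark on more of the cells and more of the mark per cell cannot be told apart.

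H3K36me3 is laid down in mammals by SETD2, an enzyme that travels with the elongating form of RNA polymerase II. It therefore lies over the bodies of transcribed genes, is usually weak at the start and grows towards the 3′ end. Pou5f1 encodes OCT4, a POU homeodomain factor, and Sox2 encodes an HMG box factor. OCT4 and SOX2 bind neighbouring sites as a pair at many enhancers of ES cells. Nanog encodes a homeodomain factor that sustains self-renewal, and Sall4 encodes a zinc finger factor that binds the NuRD deacetylase complex.

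Peaks of H3K36me3 lay over most of the body of each of the 4 genes in both replicates. Pou5f1, ENSMUSG00000024406.16, at chr17:35506018-35510772 on the plus strand and 4.755 kb long, had 68.8% of its bases in peaks in replicate 1 and 64.8% in replicate 2, with a mean of 66.8% ± 2.80 (SD, n = 2). Sox2, ENSMUSG00000074637.7, a gene of 1 exon at chr3:34650405-34652461 on the plus strand and 2.057 kb long, had 63.5% in replicate 1 and 81.5% in replicate 2, with a mean of 72.5% ± 12.7 (SD, n = 2). The replicates were close for Pou5f1 and far apart for Sox2. Nanog, ENSMUSG00000012396.12, at chr6:122707489-122714633 on the plus strand and 7.145 kb long, had 71.6% in replicate 1 and 61.9% in replicate 2, with a mean of 66.7% ± 6.85 (SD, n = 2). Sall4, ENSMUSG00000027547.17, at chr2:168748332-168767943 on the minus strand and 19.612 kb long, had 65.5% in replicate 1 and 59.4% in replicate 2, with a mean of 62.4% ± 4.28 (SD, n = 2).

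Genes with 10% or more of their bases in peaks in both replicates are named marked here. All 4 genes were marked, as were 37.2% of all coding genes, 8155 of 21911. The 4 genes also stayed marked when the threshold was put at 50%. Over the marked genes the median covered share was 57.1% in replicate 1 and 52.9% in replicate 2, below each of the 4 genes in the same replicate. Among marked genes alone, Sall4 stood at percentile 60.6 in replicate 1 and 57.3 in replicate 2, and Pou5f1 at 64.9 and 63.8. Nanog stood at 68.8 and 60.5, and Sox2 at 58.5 and 85.3. All 4 were above the middle of the marked genes in both replicates.

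The order of the 4 genes was not the same in the replicates. Nanog was the most covered and Sox2 the least in replicate 1, whereas Sox2 was the most and Sall4 the least in replicate 2. In the order of the means (Sox2, Pou5f1, Nanog, Sall4), each gap between neighbours was smaller than the larger SD of its pair. No test was run on 2 replicates, for which an exact two-sided sign test cannot give a p below 0.5.

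The difference between replicates at Sox2, 17.9 percentage points, was larger than in 97.6% of all marked genes and in 88.5% of the 366 marked genes under 3 kb. Over Sox2 the 1307 bases covered in replicate 1 were all covered in replicate 2, which covered a further 369 bases. Replicate 1 had 2 peaks over the gene with an uncovered stretch of 235 bp between them, at chr3:34652046-34652280, where replicate 2 had 1 unbroken peak of 2227 bp. This stretch lay fully inside a peak in the pooled set and in both sets of peaks found in both replicates. Of the bases covered in either replicate, 84.7% were shared over Pou5f1, 78.0% over Sox2, 84.4% over Nanog and 89.0% over Sall4. Every peak over the 4 genes overlapped a peak of the other replicate by at least 1 bp.

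**Figure D1:**
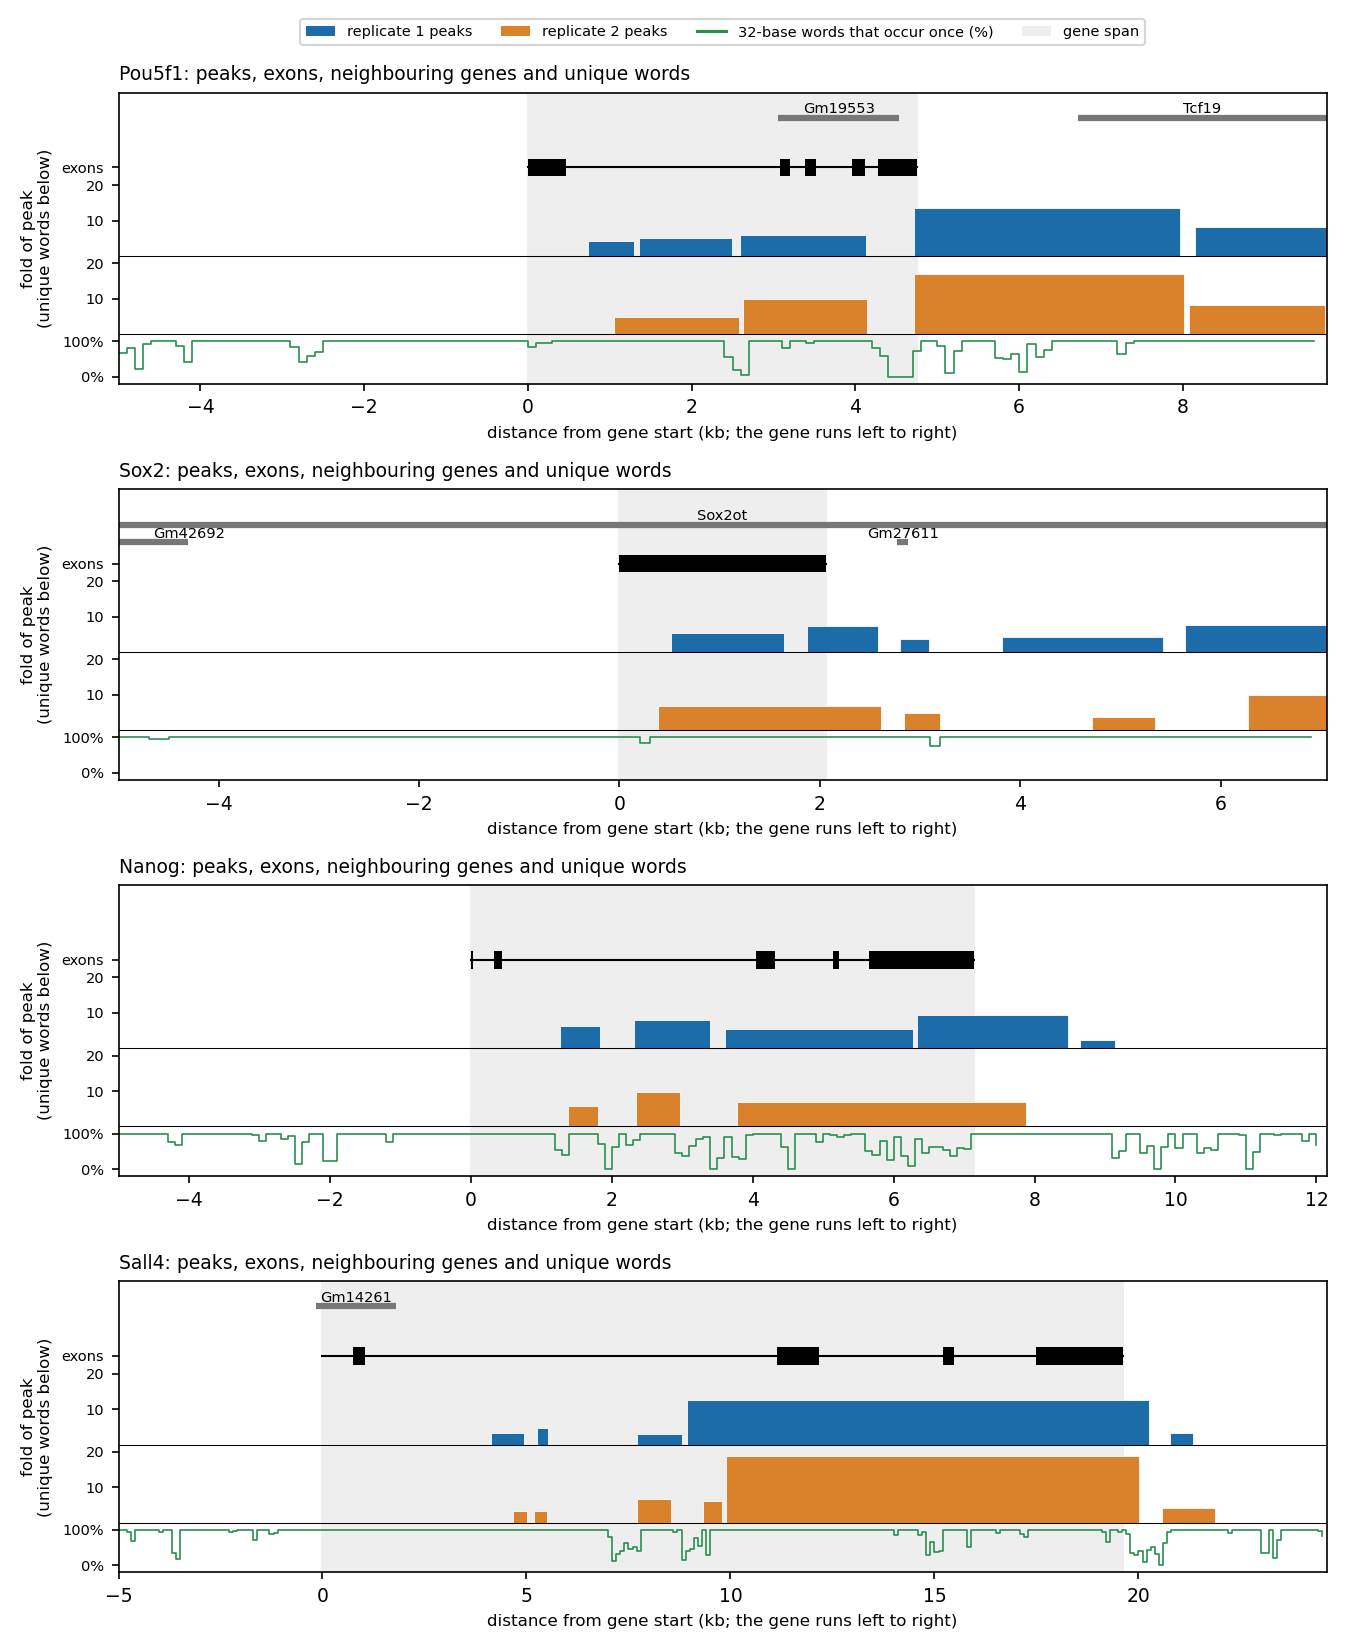
Each panel runs from 5 kb before to 5 kb after a gene, with distance from the gene start in kb on the x axis. Bars are peaks of replicate 1 (blue) and replicate 2 (orange), with height the authors' fold enrichment; black boxes are exons of 1 coding transcript, grey lines other annotated genes, and the green line the percent of 32-base words that occur once in the genome, in bins of 100 bp. No bar lies in the 5 kb before any of the 4 genes, and the highest bars are at the 3′ end of Sall4 and just past the end of Pou5f1.

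The starts of the 4 genes were free of peaks, except that of Sox2 in replicate 2. None of the 4 genes had a covered base in the 5 kb upstream of its start in either replicate, whereas 28.4% of marked genes had some in both. No gene had a covered base within 500 bp of its start, on either side, in both replicates, and among marked genes 4.28% did. Sox2 was the only one of the 4 with any cover in that window, 0% in replicate 1 and 11.9% in replicate 2. With so few marked genes covered there, the empty start windows of the 4 genes do not set them apart.

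The distance from the gene start to the first covered base was short in the small genes and long in Sall4. In Pou5f1 the first covered base lay 731 bp from the start in replicate 1 and 1046 bp in replicate 2, inside intron 1. In Sox2 it lay at 515 bp in replicate 1 and 381 bp in replicate 2, inside the single exon. In Nanog the distances were 1268 bp and 1377 bp, inside intron 2. Sall4 had the longest uncovered start of the 4, with 4135 bp in replicate 1 and 4665 bp in replicate 2. As a share of gene length the 8 values were closer, between 15.4% and 25.04%. The first Sall4 peaks were weak: with −log10 q of at least 5, a choice made after the values were seen, Sall4 began at 5252 bp and 7717 bp, the second being 39.3% of its length, and the other 3 genes kept their distances.

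Promoter sequences before the first RefSeq start are shown for Nanog and Sox2. Each of these held a match to the sites that the encoded factors themselves bind. Of the 4 genes 3 matched the RefSeq promoter table, all but Sall4. The 250 bases before the RefSeq start are given on the plus strand of GRCm38.p6, credited to RefSeq, at chr6:122707239-122707488 for Nanog and chr3:34649745-34649994 for Sox2, whose RefSeq start lies upstream of the GENCODE one. Capitals mark matches to the octamer core TGCAAA, the site class of POU factors, or the SOX core ACAAT, the site class of SOX factors, on either strand.
Nanog: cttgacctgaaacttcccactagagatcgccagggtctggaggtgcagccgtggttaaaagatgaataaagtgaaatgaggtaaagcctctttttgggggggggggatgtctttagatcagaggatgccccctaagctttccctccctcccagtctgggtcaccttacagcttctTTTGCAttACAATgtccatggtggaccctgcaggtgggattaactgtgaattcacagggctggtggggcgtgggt
Sox2: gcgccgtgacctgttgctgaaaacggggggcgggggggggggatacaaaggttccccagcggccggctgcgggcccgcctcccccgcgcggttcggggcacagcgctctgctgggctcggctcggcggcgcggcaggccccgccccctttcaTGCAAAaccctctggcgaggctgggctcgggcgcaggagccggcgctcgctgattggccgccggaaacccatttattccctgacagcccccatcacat

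In the Nanog promoter an octamer core on the minus strand and a SOX core on the plus strand stand side by side, with 2 bases between them. An octamer core and a SOX core within 6 bases of each other were found in 0.597% of 32851 RefSeq promoter windows of this length. The octamer core alone was found in 13.5% of the windows and the SOX core alone in 27.7%. The Sox2 window held 1 octamer core and no SOX core. The first Pou5f1 window, at chr17:35505782-35506031, held neither, nor the whole octamer ATGCAAAT, which was found in 1.60% of windows on either strand. All 3 windows had 0% of their bases in peaks in both replicates. Another RefSeq window of Pou5f1, before a start inside the gene at chr17:35508557-35508806, lay in peaks to 78.0% in replicate 1 and 80.0% in replicate 2 and held 1 SOX core. These matches describe the letters only and are not evidence of binding.

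Along the gene body, each gene was split into 3 equal parts (5′, middle and 3′). The 3′ part was more covered than the 5′ part in all 4 genes in both replicates, as it was in 85% of the 7789 marked genes of at least 3 kb, a size that Sox2 does not reach. The difference, 3′ part minus 5′ part, was smallest in Pou5f1, with 13.4 percentage points in replicate 1 and 29.6 in replicate 2. In Sox2 it was 40.8 and 55.5 points. In Nanog it was 71.2 and 80.2 points. Sall4 had the steepest gradient, with 83.5 points in replicate 1 and 89.995 in replicate 2. The median marked gene had 35.8 and 37.7 points, so Pou5f1 lay below the middle of that distribution in both replicates and the other 3 genes above it.

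The 3 parts show where each gene gained its cover. In Sall4 peaks held 16.5% of the 5′ part in replicate 1 and 10.005% in replicate 2, the middle part was covered to 79.9% and 68.3%, and the 3′ part to 100% in both. In Nanog the 5′ part was covered to 26.4% and 19.8%, the middle part to 90.8% and 65.9%, and the 3′ part to 97.6% and 100%. In Sox2 the 5′ part was covered to 24.9% and 44.46%, the middle part to 100% in both, and the 3′ part to 65.7% and 100%. Pou5f1 had the most cover in its middle part in both replicates, as Sox2 had in replicate 1: 49.5% and 34.0% in the 5′ part, 93.9% and 96.8% in the middle part, and 62.9% and 63.6% in the 3′ part.

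A division into 10 equal parts shows the same shape more finely. Part 1 of each of the 4 genes had no covered base in either replicate. Marked genes of at least 3 kb, a size that Sox2 does not reach, had a mean of 13.6% and 11.3% there. How many marked genes had an empty part 1 was not counted, so this does not set the 4 genes apart. From part 7 on, Sall4 was covered to 100% in both replicates, and Nanog to at least 91.9%. In Pou5f1 parts 7 and 8 were covered to 100% in both replicates, and part 10 to only 8.42% in replicate 1 and 7.16% in replicate 2. Among marked genes of at least 3 kb, 9.58% had a part 10 under 10% in both replicates, and 1.27% had this together with a part 8 of at least 90%. These limits follow the values of Pou5f1 itself, so the shares do not measure how rare its shape is. Part 10 of Pou5f1 also lies inside its exon 5, of which 61.4% lay in peaks in the pooled set.

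**Figure D2:**
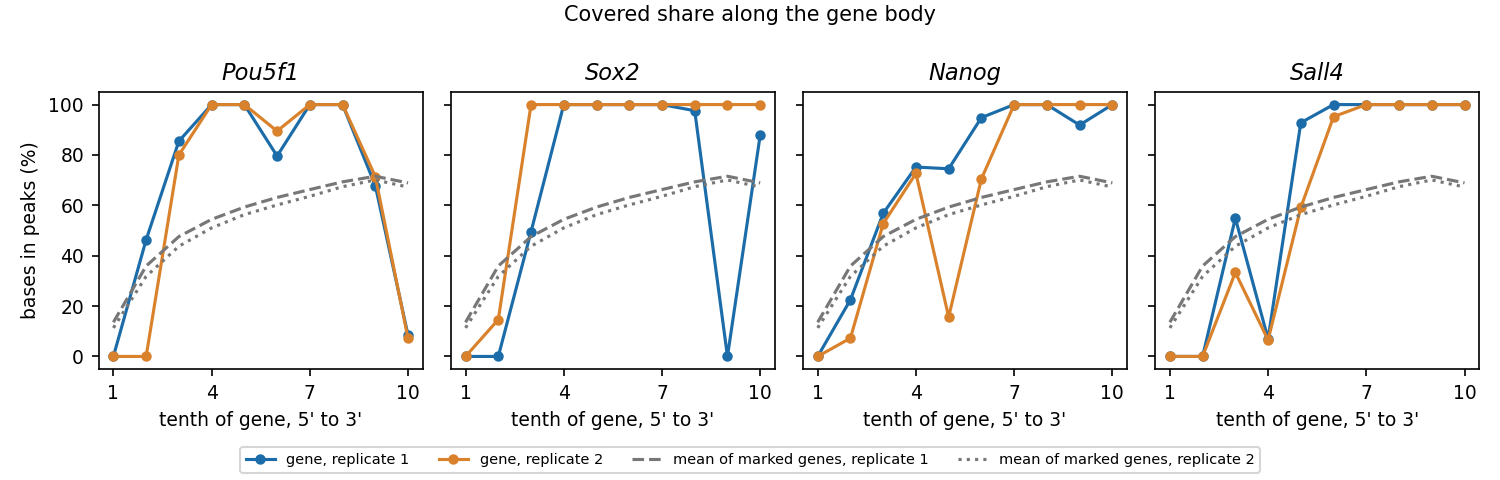
The share of bases in peaks (%, y axis) is plotted in 10 equal parts of each gene, 5′ to 3′ on the x axis, for replicate 1 (blue) and replicate 2 (orange), with the mean over marked genes of at least 3 kb as grey lines. Every gene starts at 0% in part 1; Sall4 and Nanog end at 100%, while Pou5f1 ends at 8.42% and 7.16%.

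Single exons and introns, numbered along 1 coding transcript of each gene, were mostly either fully covered or empty. In Sall4 exon 1 was empty in both replicates, exons 2, 3 and 4 and introns 2 and 3 were covered to 100% in both, and intron 1, of 10111 bp, had 43.2% of its bases in peaks in replicate 1 and 31.5% in replicate 2. Exon 2 of Sall4, of 1035 bp, holds the largest coding part of this transcript. In Nanog exons 1 and 2 and intron 1 were empty, exons 3 and 4 and introns 3 and 4 were covered to 100% in both replicates, and exon 5, which ends the gene, to 96.1% and 100%. In Pou5f1 exon 1 was empty and exons 2, 3 and 4 were covered to 100% in both replicates.

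Exons, merged over all transcripts into blocks, were more covered than introns in Nanog and Sall4 and less covered in Pou5f1. Exons exceeded introns in both replicates in 2 of the 3 genes that have introns, and in 67.2% of 8010 marked genes. In Sall4 the 7 exon blocks were covered to 86.4% in both replicates, against 57.2% of intron bases in replicate 1 and 48.8% in replicate 2, a difference of 33.4 points ± 5.96 (SD, n = 2). In Nanog the 5 exon blocks were covered to 79.7% and 82.3%, against 67.9% and 52.6% of intron bases, a difference of 20.8 points ± 12.6 (SD, n = 2). Pou5f1 ran the other way in both replicates. Its 6 exon blocks were covered to 59.5% and 59.2%, against 77.1% and 69.8% of intron bases, a difference of -14.1 points ± 4.94 (SD, n = 2).

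These differences depend on which bases are counted. With only the exons of the longest CCDS transcript, the mean difference was -47.5 points in Pou5f1 and 33.7 in Nanog. In the unthresholded sets the direction was lost in both genes: the difference was -11.7 points in replicate 1 and 2.33 in replicate 2 in Pou5f1, with a mean of -4.70, and -1.53 and 21.2 points in Nanog, with a mean of 9.85. In Sall4 it was 26.7 and 32.8 points there. With only bases that start a 32-base word found once in the genome, a choice made after the values were seen, the difference in Pou5f1 was -6.34 points in replicate 1 and 2.67 in replicate 2, so its direction no longer held in both replicates. In Nanog the same restriction left 2.43 and 15.6 points. Sall4 was nearly unmoved, with 28.9 and 36.8 points.

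The Pou5f1 exons with little or no cover were the first and the last. Exon 5, which carries the last coding part and the 3′ end, had 8.25% of its 485 bases in peaks in replicate 1 and 7.01% in replicate 2. It lies largely inside an uncovered stretch of 571 bp at chr17:35510162-35510732, between a peak that ends just past exon 4 and the peak that begins near the gene end. In the pooled set 61.4% of exon 5 lay in peaks, and in the unthresholded sets 8.25% in replicate 1 and 59.2% in replicate 2, so whether exon 5 was called covered depended on the peak set.

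Exon 5 is also the exon of Pou5f1 with the most sequence repeated elsewhere in the genome. Intron 1 holds another repeated stretch, from 2400 to 2700 bp past the gene start. Its bins of 100 bp had 55%, 20% and 5% unique words. Peaks covered most of it in both replicates, but each replicate also had a break between peaks inside it. In replicate 1 a peak ended 2496 bp past the gene start and the next began at 2594 bp. In replicate 2 these positions were 2580 bp and 2631 bp. Of the 32-base words of exon 5, 20% occur once, against 100% of those of exon 4. The uncovered stretch of 571 bp begins before exon 5, inside intron 4. That intron had 100% unique words, yet only 3.38% of its bases were in peaks in replicate 1 and 14.9% in replicate 2. The coding parts of both exons are shown because they are neighbours with opposite cover. They are read from the plus strand of GRCm38.p6 at chr17:35509981-35510139 for exon 4 and chr17:35510288-35510548 for exon 5. Capitals mark the first base of each 32-base word that occurs more than once.
Pou5f1 exon 4: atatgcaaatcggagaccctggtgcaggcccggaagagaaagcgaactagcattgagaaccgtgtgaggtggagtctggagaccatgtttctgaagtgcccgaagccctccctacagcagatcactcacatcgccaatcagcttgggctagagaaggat
Pou5f1 exon 5: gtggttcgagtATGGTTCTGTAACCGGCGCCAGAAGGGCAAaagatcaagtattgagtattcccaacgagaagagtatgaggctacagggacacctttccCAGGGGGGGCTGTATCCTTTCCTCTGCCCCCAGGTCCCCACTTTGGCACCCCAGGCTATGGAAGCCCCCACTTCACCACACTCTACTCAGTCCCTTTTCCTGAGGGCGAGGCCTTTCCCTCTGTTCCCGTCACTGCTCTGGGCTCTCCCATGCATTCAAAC

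In the coding part of exon 5, 191 of 261 bases are in capitals, and in exon 4 none are. Places sharing at least 50 exonic words with a gene, counting words that occur at most 20 times, were found for Pou5f1 and Nanog. Copies of intron words were not searched in any of the 4 genes. Pou5f1 had 2 of them: 354 words are shared with a stretch at chr1:159293805-159294189 inside the span of Cop1, a ubiquitin ligase gene, and 92 with the processed pseudogene Gm5712. Nanog had 1, sharing 557 words with the processed pseudogene Nanog-ps1 on chromosome X. None of these copies had a covered base in either replicate. Neither the read length nor the treatment of reads with several placements was given, and their part in the empty exon was not tested.

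Over the whole of Pou5f1, peaks held 75.3% of unique bases in replicate 1 and 70.3% in replicate 2, and of repeated bases 27.7% and 30.5%. Nanog did not show such a gap, with 70.9% and 62.9% of unique bases and 73.9% and 58.7% of repeated ones. Its exon 5 was nearly fully covered although only 52.7% of its 32-base words occur once. In Sall4 the values were 66.0% and 60.4% for unique bases and 57.3% and 44.1% for repeated ones. Taken over the whole gene, uniqueness and cover thus went together in Pou5f1 and Sall4 but not in both replicates of Nanog. The empty first exons of all 3 genes had words that were at least 94.6% unique.

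**Figure D3:**
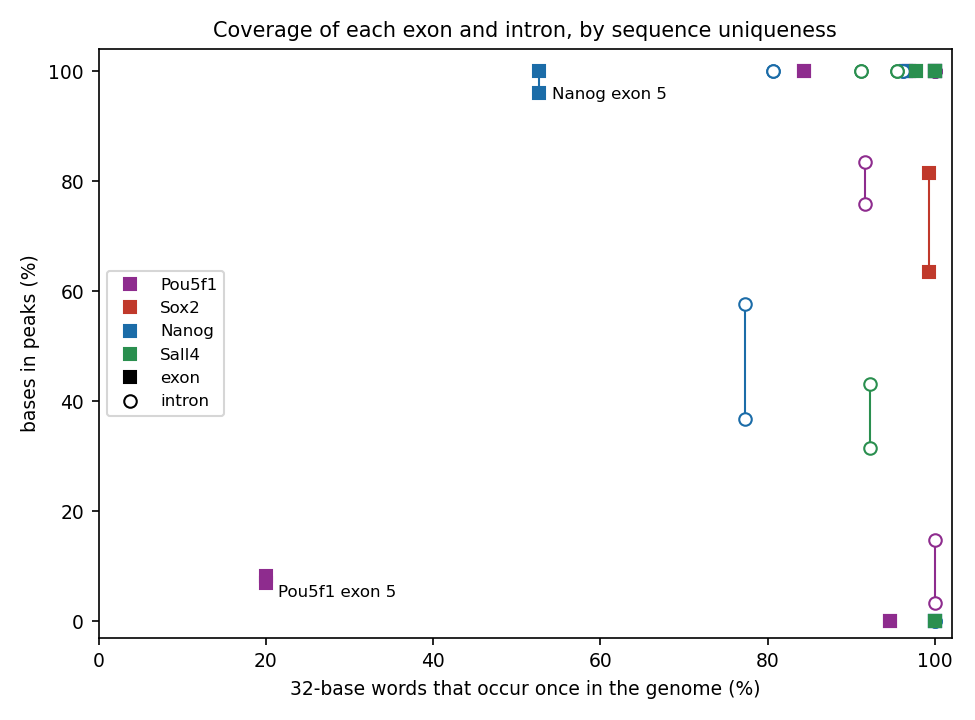
Each exon (squares) and intron (circles) of the 4 genes is placed by the percent of its 32-base words that occur once in the genome (x axis) and its share of bases in peaks (%, y axis), with a line joining the replicates. Exon 5 of Pou5f1 is at 20% unique words and under 10% cover, while exon 5 of Nanog is at 52.7% unique words and above 95% cover.

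Other uncovered stretches between peaks ranged widely in unique words. In Sall4 a stretch of 2192 bp had 82.7% unique words, one of 186 bp had 100%, and one of 141 bp had 10.6%. In Nanog a stretch of 486 bp in intron 2 had 55.3%, and one of 219 bp in the same intron, at chr6:122710879-122711097, had 17.8% and was at most 12.8% covered in any peak set used. The last of these is shown, from the plus strand of GRCm38.p6 and with capitals as before, since its words are repeated far more often than those of Pou5f1 exon 5: a word occurs up to 212492 times in this stretch, and at most 4 times in the coding part of that exon.
Nanog intron 2: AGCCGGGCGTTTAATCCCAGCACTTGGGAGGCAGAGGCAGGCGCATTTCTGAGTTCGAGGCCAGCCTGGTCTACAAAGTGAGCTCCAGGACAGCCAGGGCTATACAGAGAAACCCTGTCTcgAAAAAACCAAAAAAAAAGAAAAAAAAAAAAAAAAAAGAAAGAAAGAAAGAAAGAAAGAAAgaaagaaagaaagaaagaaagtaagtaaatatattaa

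Past their 3′ ends the 4 genes kept cover. All 4 had covered bases in the 5 kb downstream flank in both replicates, as had 70.7% of marked genes. Pou5f1 had the most, with 96.3% of the flank covered in replicate 1 and 98.3% in replicate 2. Sox2 followed with 76.5% and 46.6%, and Nanog had 36.5% and 14.5%. Sall4 had 24.3% and 34.2%. The ranges of Nanog and Sall4 overlapped, and the median marked gene had 23.7% and 20.2%.

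Pou5f1 shares its downstream flank. Tcf19, a gene on the opposite strand that ends tail to tail with Pou5f1 at a distance of 1961 bp, had 80.2% of its body in peaks in replicate 1 and 72.2% in replicate 2. The 1961 bp between the genes lay fully in peaks in both. ChIP-seq carries no strand, so cover from the 2 genes cannot be told apart there. The antisense gene Gm19553, which overlaps the 3′ part of Pou5f1, was covered to 72.4% and 73.6% and cannot be separated from it either. The nearest coding gene upstream, H2-Q10, 31454 bp away, had no covered base.

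Sox2 lies inside Sox2ot, a long noncoding gene of 578.35 kb on the same strand. All the covered bases of Sox2ot, 9628 bp in replicate 1 and 8834 bp in replicate 2, lay from the start of Sox2 on, in the last 5.57% of its length. Before Sox2 there were 0 covered bases of it in either replicate. Downstream of Sox2 cover cannot be assigned to Sox2 or to Sox2ot. Of the small annotated genes in the flanks, Gm27611 just downstream was covered to 75.0% and 42.6%, and Gm42692 upstream to 0% in both. The nearest coding genes, Dnajc19 and Atp11b, lie 569083 bp and 1101644 bp away.

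Nanog and Sall4 have no other coding gene in their flanks. Downstream of Nanog the nearest one is Slc2a3, a glucose transporter gene 13175 bp away on the opposite strand, with 20.7% and 20.8% of its body covered. Upstream, Dppa3, expressed in germ cells and early embryos, had no covered base at 77216 bp. Downstream of Sall4, Atp9a, 5922 bp away, was covered to 4.32% and 2.67%, and upstream of it Zfp64, 125387 bp away, to 40.3% and 40.8%. Gm14261, on the opposite strand over the start of Sall4, had no covered base.

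Joining peaks within 3 kb gave 1 domain over each gene. Over Nanog it was 7.88 kb long in replicate 1 and 6.495 kb in replicate 2, and it ended 2000 bp and 727 bp past the gene. Over Sall4 it was 17.2 kb long in both replicates and ended 1718 bp and 2270 bp past the gene. Over Sox2 it was 8.69 kb and 9.47 kb long and ended 7151 bp and 7794 bp past the gene, inside Sox2ot. Over Pou5f1 it was 23.6 kb long in replicate 1 and 8.69 kb in replicate 2, running past Tcf19 in replicate 1 and ending inside it in replicate 2.

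Fold enrichment, the authors' value for each peak over its background, set Sall4 apart from the other 3 genes. Its longest peak was 11329 bp in replicate 1 with a fold of 12.6, and 10106 bp in replicate 2 with a fold of 18.8. Only 0.464% of the peaks of replicate 1 and 0.253% of those of replicate 2 had a higher fold. The median fold of all peaks was 4.37 in replicate 1 and 4.996 in replicate 2. This peak held exons 2 to 4 of Sall4 in both replicates.

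Each base was then given the fold of its whole peak, or 0 outside peaks, and these values were averaged over the gene body. This average is not a per-base enrichment, since a peak has a single deposited fold. It was highest in Sall4, at 7.20 in replicate 1 and 9.85 in replicate 2, which ranked 1288 and 1134 of 21911 genes. The longest Sall4 peak gave its fold to 10670 bases of the gene in replicate 1 and 9712 in replicate 2. Nanog averaged 4.78 and 4.48, Pou5f1 3.77 and 4.79, and Sox2 3.64 and 5.58. The order of these 3 genes changed between replicates. Their averages include peaks with a summit past the gene end, in both replicates of Pou5f1 and Sox2 and in replicate 1 of Nanog. Marked genes had a median of 3.55 and 4.11.

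The highest peak that touches Pou5f1, whose fold was 13.6 (replicate 1) and 16.9 (replicate 2), lay almost wholly outside it. Only 40 of its 3252 bases in replicate 1 and 34 of its 3290 in replicate 2 were in the gene, the rest being in the space before Tcf19 and in Tcf19. Peaks wholly inside Pou5f1 had folds of 4.25 to 6.02 in replicate 1 and of 4.84 and 9.78 in replicate 2. The highest fold of a peak touching Sox2 was 7.40 in replicate 1 and 6.84 in replicate 2, but both peaks have their summit past the gene end, and the peak wholly inside Sox2 in replicate 1 had a fold of 5.46. For Nanog the highest was 9.28 in replicate 1, with its summit past the gene end, and 9.78 in replicate 2, in a peak wholly inside the gene. Wholly inside Nanog in replicate 1 the highest was 8.01.

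Every gene listed here for the wider circuit was marked. The list was chosen with earlier results of these data known and leaves out Dppa3, which had no covered base. Of 25 other genes of the pluripotency circuit, 25 were marked, where 37.2% of all coding genes were marked. Their median covered share was 56.6% in replicate 1 and 56.2% in replicate 2. That was near the medians of marked genes as a whole, 57.1% and 52.9%. Over all coding genes the median was 0% in both replicates, and 10978 of 21911 had no covered base in either. Rif1, a telomere and replication timing factor gene, was covered to 91.2% and 90.9%, and Klf5, a Krüppel-like factor gene, to 90.1% and 89.0%. Fbxo15, a target of OCT4 and SOX2, was covered to 82.7% and 85.1%, and Tfcp2l1, a factor of the naive state, to 84.9% and 79.0%. Nr0b1, an orphan nuclear receptor gene, was among the least covered, with 14.4% and 16.0%, so the 4 core genes lay well inside the range of their circuit.

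The NuRD complex, which SALL4 binds, was marked in 12 of 13 genes, where 37.2% of all coding genes were marked. The median was 71.9% and 62.7%. Chd4, its remodelling ATPase, was covered to 95.04% and 94.1%, and Rbbp4, a histone chaperone gene, to 90.6% and 87.4%. Mta2 was covered to 83.6% and 78.8%, and the deacetylase gene Hdac1 to 80.6% and 77.6%. Cdk2ap1 had 33.0% and 25.4%. Mbd2, a methyl-CpG binding subunit, had 10.7% in replicate 1 and 5.86% in replicate 2 and so missed the threshold in 1 replicate.

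The POU, SOX and NK relatives of the core factors were mostly empty, in a set of coding genes of which 37.2% were marked and 10978 of 21911 had no covered base. Of 14 other POU genes 1 was marked, Pou2f1, which encodes the widely expressed OCT1, with 31.7% and 26.0%. Pou6f1 had 4.25% and 9.12%, and the other 12 had no covered base. Of 19 other SOX genes 3 were marked: Sox15, with 69.6% and 78.4%, Sox12, with 47.9% and 55.5%, and Sox13, with 11.4% and 13.6%. The other 16 had no covered base. Of the 3 other SALL genes, Sall1 had 71.9% and 58.3% and Sall3 12.6% and 26.6%, and both were marked, whereas Sall2 had 0% and 4.53%. None of 14 NK homeobox genes, relatives of Nanog by their homeodomain, had a covered base.

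**Figure D4:**
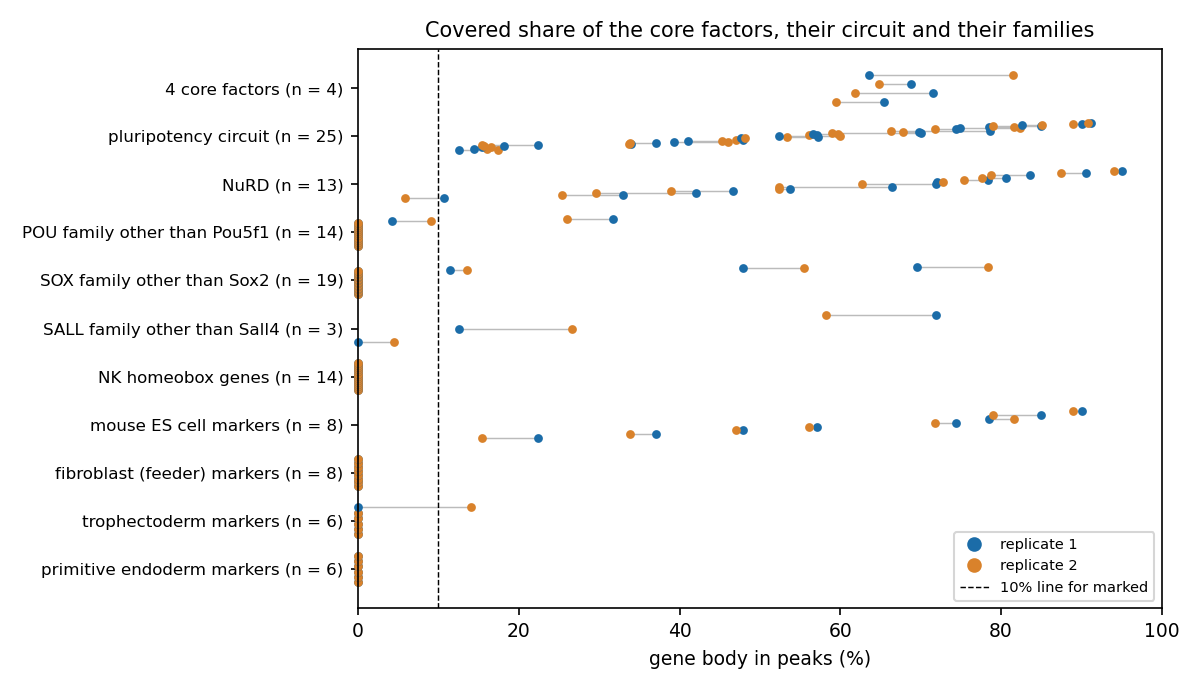
The share of the gene body in peaks (%, x axis) is plotted for the 4 core genes and for each gene list (rows), with 1 blue and 1 orange point per gene for replicates 1 and 2 and a dashed line at 10%. The 4 core genes lie between 59.4% and 81.5%, all 25 genes of the circuit lie right of the line, and most POU, SOX and NK genes lie at 0%.

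The listed markers of the labelled cell type were covered and those listed for others were not, with 1 exception. All 8 markers of mouse ES cells, each also a gene of the circuit list, were marked, as were 37.2% of all coding genes. All 25 genes of the circuit list were marked, so these 8 add no separate result. They too were chosen with earlier results known, and Dppa3, which had no covered base, is in neither list. None of 8 fibroblast markers, for feeder cells, and none of 6 primitive endoderm markers had a covered base in either replicate. Of the latter, Sox7 and Sox17 are also in the SOX list. Empty genes are common, since 10978 of 21911 coding genes had no covered base. Of 6 trophectoderm markers none was marked, and Eomes, with 0% in replicate 1 and 14.1% in replicate 2, was the only one with a covered base.

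Among marked genes that overlap no other coding gene and have between 0.5 and 2 times the length of the gene in question, those with the nearest profile over the 10 parts in both replicates were searched by Euclidean distance over 20 values. For Sall4 the nearest of 2770 genes were Baz2a, at a distance of 43.8 percentage points, and Atg13, at 53.7. For Pou5f1 the nearest of 1185 were Ccdc97, at 51.5, and Gtf2h4, at 55.5. For Nanog the nearest of 1680 were Gpat2, at 62.9, and 1810055G02Rik, at 63.6. Sox2 had no profile as near, with Ankle1 at 94.3 and Armcx1 at 95.9 among 407 genes. Its own replicates differed, with 0% in replicate 1 and 100% in replicate 2 in part 9, and 49.5% and 100% in part 3. Such differences add to the distance from any gene whose replicates are alike, so the distance does not show an unusual shape. Nearness here describes only the cover along the gene in both replicates.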

How the data were processed

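H3K36me3 ChIP-seq peak sets of 2 biological replicates of E14TG2a.4 cells were used. The authors called peaks on mm10 for each replicate and kept those supported by pseudoreplicates, per the deposited file lists. Aligner, caller, read length and depth: not given in the sources used here. Each deposited peak has a fold enrichment (a ratio over background) and a p-value and q-value as −log10, both the authors' values and used only within a set. A narrow caller splits a broad mark, so covered bases were used beside peaks. The cells are of another strain than the reference.

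Covered shares were computed with Python 3.11.15 and numpy 2.4.6 on GENCODE M21 gene spans (the longest record per coding symbol, leaving out 27 records) and checked on simulated peaks. Chromosome lengths matched the assembly and 0 peaks lay past an end. Uniqueness was counted over 32-base words of GRCm38.p6 on both strands. Copies are places sharing at least 50 words that start in exons of the gene, each occurring at most 20 times. Motifs were searched on both strands. No test between groups was possible. The members, lists, thresholds and alternatives were chosen with earlier results of these data known. Named genes were the 4 genes, genes in their 5 kb flanks, the nearest coding genes, up to 4 most and 2 least covered genes of each list, and the 2 nearest profiles. A gene this rule selects is not reported here. Each result was recomputed with the unthresholded sets, with a minimum −log10 q of 5, with each replicate left out, the pooled and replicated sets, the longest CCDS transcript, unique words only, other thresholds and other overlaps.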

Additional observations from a re-analysis of the deposited data

How the results depend on the processing

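All 4 genes stayed marked under each of the 10 alternatives tried for that count, and the 3′ part of 3 exceeded the 5′ part in each gene under every alternative run. Exon minus intron differences kept the sign of their means in Pou5f1, Nanog and Sall4 under the alternatives run, but not in each replicate of Pou5f1 on unique words, nor of Pou5f1 and Nanog in the unthresholded sets. No paired analysis was possible because the series has 1 group.

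Sets that combine the replicates covered more. In the pooled set the covered share was 79.4% for Pou5f1, 88.9% for Sox2 and 68.3% for Sall4, the 3′ minus 5′ difference 33.4 points for Sox2 and 75.4 for Sall4, the exon minus intron difference 25.3 points for Sall4, and the downstream flank 86.1% for Sox2 and 41.3% for Sall4. The main run's set of peaks found in both replicates gave the same values, except 69.7% for the Sall4 body, 71.1 and 25.1 points for its differences, and 45.4% for the Nanog flank. The other run's such set gave 78.0% for Pou5f1 and 70.2% for Sall4, 3′ minus 5′ differences of 67.5 points for Nanog and 69.8 for Sall4, 24.4 points for Sall4 exons minus introns, and flanks of 86.2% for Sox2, 45.4% for Nanog and 40.9% for Sall4. In the unthresholded sets, from another alignment, the 3′ minus 5′ difference was 60.7 points for Nanog and 75.2 for Sall4, the exon minus intron difference -4.70 points for Pou5f1, the downstream flank 37.0% for Sall4 and the upstream flank 2.55% for Nanog. With −log10 q of at least 5 the 3′ minus 5′ difference of Sall4 was 98.0 points. With unique words only Pou5f1 had 72.8% of its body covered, a 3′ minus 5′ difference of 40.4 points and an exon minus intron difference of -1.83 points. With the longest CCDS transcript the exon minus intron difference was -47.5 points for Pou5f1 and 33.7 for Nanog. Leaving out a replicate gave the values of the other, 63.5% to 81.5% for Sox2. The cause of these shifts was not tested. At a 50% reciprocal overlap 6 of 7 peaks over Pou5f1, 2 of 3 over Sox2, 6 of 7 over Nanog and 6 of 9 over Sall4 were found in both replicates. Unknown depth limits what an uncovered base means.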
